A study of Sus scrofa with 12 samples.

Results

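The genes described here are enzymes that remove reactive oxygen species in the piglet jejunum, together with NFE2L2, the gene of the transcription factor NRF2, and known NRF2 targets. They were chosen by name, and rows that share a gene name were summed. Of the 10 names listed, 8 matched among the 17049 gene names of the table: SOD1, SOD2, SOD3, CAT, GPX2, TXNRD1, NQO1 and NFE2L2. GPX1 and HMOX1 were not matched by name and are not analysed here. All 8 passed the minimum mean of 0.5 FPKM (fragments per exon kilobase, relative to all mapped fragments) in each comparison.

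RNA was sequenced from the jejunum of 12 piglets in 4 groups of 3. W_Con piglets were taken at 21 days of age at weaning (day 0) and PW_Con piglets at 28 days, 7 days after it, and their sows were fed a corn and soybean meal diet without resveratrol. W_Res and PW_Res piglets had the same ages, and their sows were fed that diet with 300 mg/kg of resveratrol, a plant polyphenol, starting 20 days after breeding and continuing until the piglets were weaned. Piglets were cross-fostered within a sow diet, and age and weaning cannot be told apart because no unweaned piglet was taken at 28 days. The paper describes the 6 control animals as Yorkshire × Duroc piglets that changed room when weaned, whereas the public records give Landrace sires and an unchanged pen. The libraries of a group are given as biological replicates, and the paper's methods have a male piglet taken from every litter at either age. The control groups can thus share litters, but no source used here says which libraries come from the same litter.

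Superoxide dismutases turn superoxide into hydrogen peroxide, which catalase removes in peroxisomes and glutathione peroxidases reduce with glutathione. Thioredoxin reductase keeps thioredoxin reduced at the cost of NADPH, and NQO1 reduces quinones. NRF2 is held down by KEAP1 in unstressed cells and, once released, enters the nucleus with a small MAF partner and switches on genes such as NQO1, TXNRD1 and GCLC.

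The libraries differed within groups as well as between them, and some of these differences ran with the genes described here. The summed FPKM of FABP6, SLC10A2 and SLC51A, bile acid handling genes of the distal small intestine (3 of the 4 listed matched, none at 0 in any library), ranged from 51.8 to 24495. FABP6 made up most of the higher sums, SLC10A2 was at 1.67 to 11.7 FPKM in the libraries with low sums and 12.9 to 65.9 in the others, and SLC51A overlapped between them. The sum was at most 221 in 5 libraries (W_Con3, W_Res1, W_Res2, PW_Res2 and PW_Res3) and at least 1337 in the other 7. By group, 1 of the 3 W_Con, none of the PW_Con, 2 of the 3 W_Res and 2 of the 3 PW_Res libraries were low. The paper reports FABP6, SLC51A and the locus matched here as SLC10A2 as increased in weaned control piglets. The sum is thus not independent of weaning. The summed smooth muscle markers (5 of 6 matched, none at 0) were 1510 FPKM in W_Res1 and 3328 in W_Res2, and 92.6 to 379 in the other 10 libraries. W_Res2 also had the lowest median correlation with the other libraries, 0.881 over 12886 genes against 0.906 to 0.938 for the remaining 11. In bulk tissue, fewer cells of a type and less RNA per cell cannot be told apart. FPKM are not counts, so the depth behind a single value is unknown.

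All 8 genes were expressed in every library. The 12-library means ran from 8.32 FPKM for NQO1 and 8.73 FPKM for SOD3 to 239 FPKM for SOD1, and FPKM are scaled for length. GPX2 varied most between libraries, with its highest value 29.3 times its lowest. NQO1 followed with a ratio of 10.4 and SOD3 with 9.45, while TXNRD1 (2.66), SOD1 (2.93) and NFE2L2 (2.99) varied least.

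**Figure D1:**
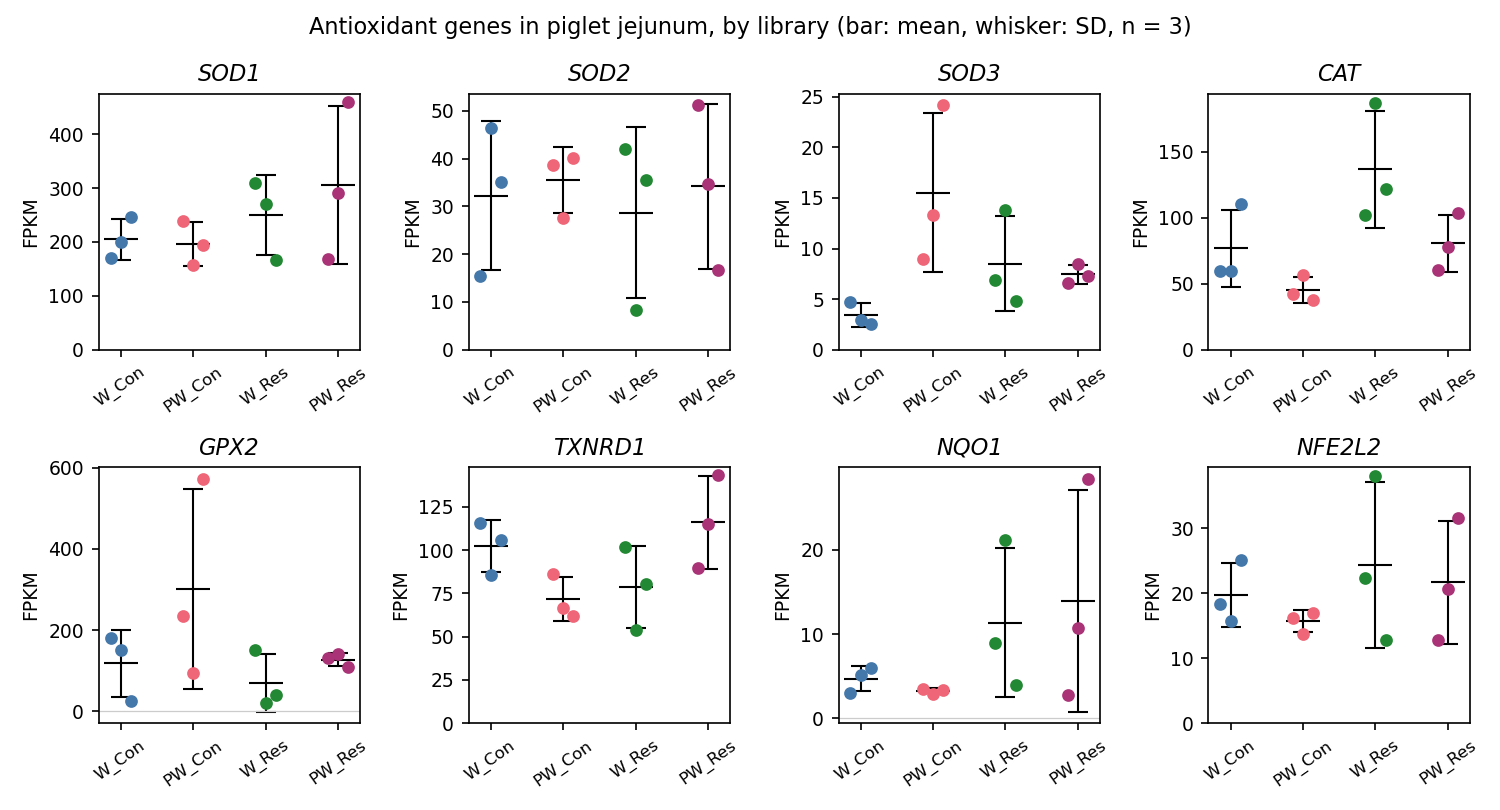
FPKM of the 8 genes (vertical axis, linear) in the 4 groups (horizontal axis). Each point is 1 library, the horizontal bar is the group mean and the whiskers are the SD (n = 3). SOD3 lies at 2.57 to 4.75 FPKM in W_Con and at 9.00 to 24.2 FPKM in PW_Con, and CAT is highest in W_Res.

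Each pair of groups was compared with limma on log2(FPKM + 1) over all named genes. A gene is said to have risen or fallen where it met the cutoffs of the study, called the standard here. These are an unadjusted P under 0.05 with a log2 fold change above 1 or below -1. The paper applied them to expression levels estimated with StringTie and Ballgown, so its calls can differ from those in limma. For weaning in control piglets it reports CAT as decreased and GPX2 and SOD3 as increased, by RNA-seq and by qRT-PCR. Of these genes only SOD3 met the standard in limma for that comparison. Adjusted p-values are Benjamini-Hochberg values from limma over all genes tested. No adjusted p of the 8 genes was under 0.05 in any of the 7 comparisons, and the lowest was 0.117. For 3 libraries against 3, the smallest p of the exact permutation test is 0.1. Log2 fold changes on this scale understate the change of genes with low FPKM.

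Among the superoxide dismutases, SOD3 was the member that differed most between groups. SOD3 encodes the extracellular enzyme, which is secreted and binds to the matrix between cells. It was at 4.75, 2.94 and 2.57 FPKM in W_Con and at 9.00, 13.3 and 24.2 FPKM in PW_Con. The lowest PW_Con library was thus above the highest W_Con library. In the resveratrol groups it was at 6.91, 13.8 and 4.85 FPKM in W_Res and at 6.61, 8.44 and 7.33 FPKM in PW_Res. The 3 PW_Res libraries lay within the range of W_Res and below all PW_Con libraries. By group mean the order was PW_Con (15.5 ± 7.85 FPKM, SD, n = 3), W_Res (8.52 ± 4.68), PW_Res (7.46 ± 0.922) and W_Con (3.42 ± 1.17), and only the last neighbours in this order, PW_Res and W_Con, did not overlap.

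In control litters, SOD3 rose after weaning by a log2 fold change of 1.83 (SE 0.36, P = 0.00128 and adjusted p = 0.117 in limma, exact permutation p = 0.1). In resveratrol litters the same contrast was -0.065 (SE 0.34, adjusted p = 0.947 in limma), and its sign turned when the libraries were rescaled by median of ratios (0.14) or quantiles (0.058). The difference between these weaning effects was itself tested over the 12 libraries and was -1.89 (SE 0.53, adjusted p = 0.251 in limma). Both the control weaning effect and the difference met the standard with any 1 library left out. At 21 days SOD3 was higher in resveratrol litters by 1.03 (SE 0.37, P = 0.0262 and adjusted p = 0.354 in limma, exact permutation p = 0.1), and the groups did not overlap. At 28 days it was lower in resveratrol litters, with a log2 fold change of -0.86 (SE 0.33, P = 0.0333 and adjusted p = 0.448 in limma, exact permutation p = 0.1) that did not reach the fold required, and again the groups did not overlap. It met the standard without PW_Con1 (-1.17) and was -0.51 without PW_Con3.

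Marker lists of cell types outside the epithelium were set beside SOD3. The smooth muscle sum (5 of 6 markers matched) was 92.6 to 379 FPKM in W_Con and 281 to 379 FPKM in PW_Con, and the fibroblast sum (4 of 5 markers matched) was 134 to 579 FPKM in W_Con and 110 to 245 FPKM in PW_Con. Endothelial markers (2 of 4 matched) summed to 16.6 to 44.2 FPKM in W_Con and 26.2 to 29.8 in PW_Con, macrophage markers (5 of 8 matched, with CD14 at 0 in W_Res2) to 119.5 to 149.5 and 60.04 to 324, and lymphocyte markers (8 of 8) to 242 to 288 and 219.8 to 366. The groups overlapped in each of these 5 sums, whose part in the SOD3 values of control litters was not tested. At 21 days, the W_Res library with the most SOD3, W_Res2, was also the one with the most smooth muscle markers. W_Res2 also had the highest fibroblast (1071 FPKM), endothelial (55.2) and macrophage (352) sums of the 12 libraries. Its lymphocyte sum (279 FPKM) lay within the range of W_Con. Without W_Res2 the difference at 21 days was 0.66 (adjusted p = 0.617 in limma) and no longer met the standard. Without W_Con2 (0.96) or W_Con3 (0.89) it did not meet it either, nor under median-of-ratios rescaling (0.94), quantile normalization (0.93) or with a term for the distal marker level (0.98). The part of smooth muscle and of the other cell types in the SOD3 values of W_Res was not tested beyond this.

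SOD1, the copper and zinc enzyme of the cytosol, was the most abundant of the 8 genes. It was at 169.8, 199.6 and 246 FPKM in W_Con, 239, 157 and 194 FPKM in PW_Con, 310.2, 271 and 166 FPKM in W_Res, and 168, 291 and 461 FPKM in PW_Res. The groups overlapped in every comparison. Its log2 fold changes lay between -0.064 for weaning in control litters and 0.54 for resveratrol at 28 days, with adjusted p-values of 0.527 to 0.917 in limma. SOD2, the manganese enzyme of mitochondria, had values from 8.32 FPKM in W_Res2 to 51.2 FPKM in PW_Res1. Its groups overlapped in every comparison as well, and its adjusted p-values were 0.700 to 0.952 in limma.

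Catalase, the peroxisomal enzyme that splits hydrogen peroxide, had a different pattern. CAT was at 59.8, 59.8 and 110.4 FPKM in W_Con and at 42.5, 56.3 and 37.3 FPKM in PW_Con, and the groups did not overlap. It was at 102, 186 and 121 FPKM in W_Res and at 60.3, 78.0 and 103 FPKM in PW_Res, where PW_Res3 lay just above the lowest W_Res library. The order of means was W_Res (137 ± 44.2 FPKM, SD, n = 3), PW_Res (80.5 ± 21.6), W_Con (76.7 ± 29.2) and PW_Con (45.3 ± 9.83), of which only W_Con and PW_Con did not overlap as neighbours.

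The weaning contrast of CAT was -0.70 (SE 0.28, P = 0.0415 and adjusted p = 0.263 in limma, exact permutation p = 0.1) in control and -0.74 (SE 0.31, P = 0.0460 and adjusted p = 0.370 in limma, exact permutation p = 0.2) in resveratrol litters. The resveratrol contrast was 0.84 (SE 0.33, P = 0.0368 and adjusted p = 0.363 in limma, exact permutation p = 0.2) at 21 days and 0.80 (SE 0.26, P = 0.0159 and adjusted p = 0.404 in limma, exact permutation p = 0.1) at 28 days, where all 3 PW_Res libraries were above all 3 PW_Con libraries. None of the 4 reached the fold of the standard with all libraries in the fit. Without W_Con3, the W_Con library with the most CAT, the weaning contrast in control litters was -0.41 and the resveratrol contrast at 21 days 1.13, which met the standard, as did 1.03 without W_Res1. The weaning contrast in resveratrol litters ranged from -0.94 to -0.50 with 1 library left out. The difference between the weaning effects was -0.038 (SE 0.44, adjusted p = 0.977 in limma), a value that turned to 0.16 under median-of-ratios rescaling. Averaged over both litter sets, the weaning contrast was -0.72 (SE 0.22, P = 0.00703, adjusted p = 0.145 in limma) with an exact stratified permutation p of 0.01. Averaged over both ages, the resveratrol contrast was 0.82 (SE 0.22, P = 0.00316, adjusted p = 0.222 in limma) with an exact stratified permutation p of 0.015, where 0.005 is the smallest p this test allows. With a term for the distal marker level, added after seeing the data, both averages were smaller in size, at -0.58 and 0.57.

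Red blood cells are rich in catalase. Their markers (3 of 5 matched, with SLC4A1 at 0 in 8 of the 12 libraries and HBB making up nearly all of the sum) summed to 30.9 to 74.3 FPKM in W_Con, 0.662 to 48.3 in PW_Con, 79.7 to 131 in W_Res and 6.77 to 15.3 in PW_Res. W_Res, the group with the most CAT, was above both W_Con and PW_Res in these markers without overlap. PW_Res and PW_Con overlapped in them but not in CAT, and W_Con and PW_Con likewise. Their part in the CAT values was not tested.

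**Figure D2:**
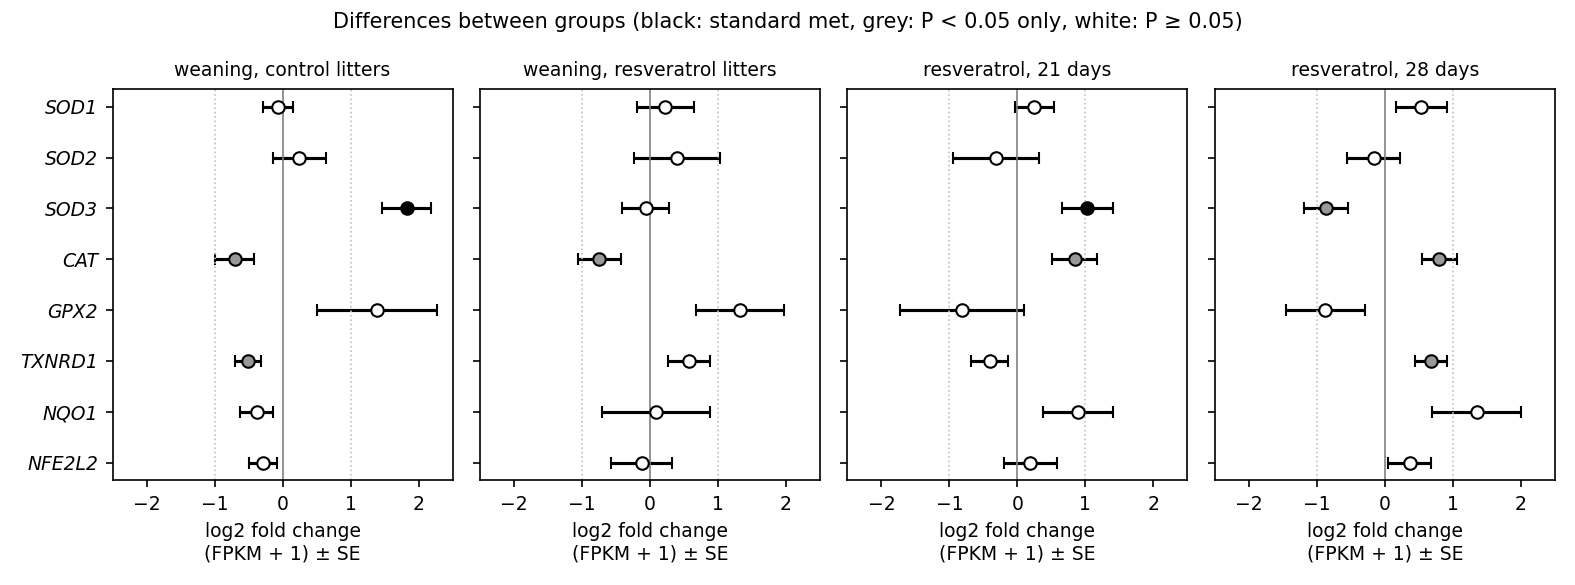
Log2 fold change on the log2(FPKM + 1) scale (horizontal axis) of each of the 8 genes (rows) in the 4 comparisons of 3 against 3 libraries. Points are estimates and whiskers the SE from limma, black points met the standard, grey points had P under 0.05 only, and dotted lines mark -1 and 1. The SOD3 point is black at 1.83 for weaning in control litters, and the CAT points lie at -0.70 and -0.74 for weaning and at 0.84 and 0.80 for resveratrol.

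GPX2, the glutathione peroxidase of the gut epithelium, is most abundant in crypts in healthy intestine. It was at 180.4, 151 and 24.9 FPKM in W_Con and at 235, 94.2 and 573 FPKM in PW_Con. In W_Res it was at 152, 19.6 and 40.9 FPKM, and in PW_Res at 132, 141 and 110.0 FPKM. The groups overlapped in all comparisons, and PW_Res was the group with the smallest spread. The weaning contrasts were alike in size, 1.39 (SE 0.88, adjusted p = 0.455 in limma) in control and 1.33 (SE 0.65, adjusted p = 0.416 in limma) in resveratrol litters, and neither had a P under 0.05. In resveratrol litters the contrast ranged from 0.68 without W_Res2 to 2.12 without W_Res1, and it met the standard in the latter fit and under median-of-ratios rescaling (1.55). The resveratrol contrasts were -0.81 at 21 days (SE 0.91, adjusted p = 0.705 in limma) and -0.87 at 28 days (SE 0.59, adjusted p = 0.621 in limma), and the latter met the standard without PW_Con2 (-1.52) and was -0.23 without PW_Con3. Averaged over both litter sets GPX2 rose by 1.36 (SE 0.61, P = 0.0469, adjusted p = 0.258 in limma), with an exact stratified permutation p of 0.085. This call was lost in 8 of the 12 fits that left out 1 library, with values of 0.91 without W_Con3, 1.03 without W_Res2 and 1.04 without PW_Con3, and in control litters the contrast was 0.50 without W_Con3 and 0.03 with the distal marker term.

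The library with the most GPX2, PW_Con3, had the highest crypt marker sum of its group, 1367 FPKM over 7 of 7 markers, against 357 and 487 FPKM in PW_Con1 and PW_Con2. OLFM4 made up 1193 of the 1367 FPKM, and TOP2A, PCNA, MCM2 and CDK1, genes of dividing cells, were also highest in PW_Con3 within its group. The other markers of the list did not follow. MKI67 was highest in PW_Con2 (68.2 FPKM against 59.5 in PW_Con3), and LGR5 was lowest in PW_Con3 (0.137 against 0.201 in PW_Con1 and 0.198 in PW_Con2). W_Res1 had a crypt sum of 1380 FPKM, 1213 of it OLFM4, with 152 FPKM of GPX2, and PW_Res1 had 237 FPKM with 132 FPKM of GPX2. By group the crypt sum ran from 449 to 928 FPKM in W_Con, 357 to 1367 in PW_Con, 405 to 1380 in W_Res and 237 to 1262 in PW_Res. Its part in the GPX2 values was not tested.

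GPX2 and CAT ran in opposite directions across libraries. The 3 libraries with the least GPX2 (W_Res2, W_Con3 and W_Res3, at 19.6, 24.9 and 40.9 FPKM) were the 3 with the most CAT (186, 110.4 and 121 FPKM). The 2 libraries with the most GPX2 (PW_Con3 and PW_Con1, at 573 and 235 FPKM) were the 2 with the least CAT (37.3 and 42.5 FPKM). The first 3 are all 21-day libraries and the last 2 are both from weaned control piglets, so this ordering is partly that of the groups.

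**Figure D3:**
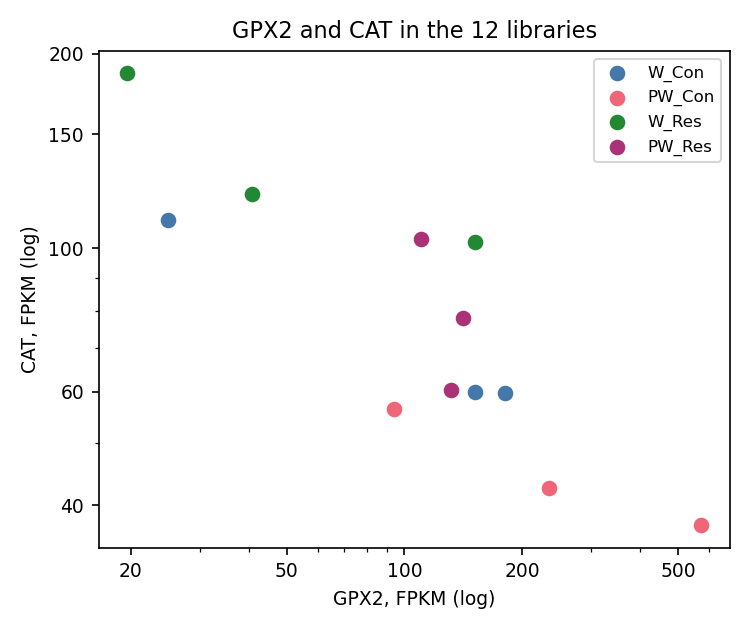
CAT against GPX2 in the 12 libraries, both in FPKM on log axes, 1 point per library coloured by group. The points run from W_Res2 at the upper left (19.6 FPKM of GPX2 and 186 of CAT) to PW_Con3 at the lower right (573 and 37.3 FPKM).

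TXNRD1, the cytosolic thioredoxin reductase and an NRF2 target, had weaning contrasts of opposite sign in the 2 litter sets. It was at 115, 85.7 and 106 FPKM in W_Con and at 86.4, 66.7 and 62.1 FPKM in PW_Con, where 1 PW_Con library lay above the lowest W_Con library. It was at 102, 54.0 and 80.4 FPKM in W_Res and at 89.9, 115 and 144 FPKM in PW_Res, where only the W_Res1 value was above the lowest PW_Res library. The contrast was -0.51 (SE 0.20, P = 0.0342 and adjusted p = 0.247 in limma, exact permutation p = 0.2) in control and 0.58 (SE 0.30, adjusted p = 0.443 in limma, exact permutation p = 0.2) in resveratrol litters. The difference between them was 1.09 (SE 0.37, adjusted p = 0.270 in limma) and met the standard. It fell short of the fold required without W_Con1 (0.99), W_Res2 (0.84), PW_Con3 (0.99) or PW_Res3 (0.92), and under quantile normalization (0.95).

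At 28 days TXNRD1 was higher in resveratrol than in control litters, 116 ± 26.8 against 71.7 ± 12.9 FPKM (SD, n = 3). The contrast was 0.68 (SE 0.24, P = 0.0234 and adjusted p = 0.422 in limma, exact permutation p = 0.1), below the fold of the standard, and the groups did not overlap. With the distal marker term it was 0.42 (adjusted p = 0.630 in limma).

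NQO1, a quinone reductase that is widely used as a readout of NRF2, was low in all control libraries. It was at 3.04, 5.10 and 5.99 FPKM in W_Con and at 3.53, 2.93 and 3.38 FPKM in PW_Con. In resveratrol litters it was at 8.91, 21.1 and 3.97 FPKM in W_Res and at 2.73, 10.7 and 28.4 FPKM in PW_Res. In each resveratrol group, 2 libraries were above all 6 control libraries and 1 lay within or below their range. Averaged over both ages NQO1 rose with resveratrol by 1.12 (SE 0.47, P = 0.0341, adjusted p = 0.378 in limma), with an exact stratified permutation p of 0.07.

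The contrast at a single age was 0.89 (SE 0.52, adjusted p = 0.477 in limma) at 21 days and 1.35 (SE 0.66, adjusted p = 0.527 in limma) at 28 days. The averaged call was lost in 8 of 12 fits that left out 1 library, and was 0.84 without W_Res2 and 0.76 without PW_Res3. With the distal marker term it was 0.44 (adjusted p = 0.585 in limma), and at 28 days 0.14 (adjusted p = 0.931 in limma). Without PW_Res1, the only PW_Res library high in the distal markers, the contrast at 28 days was 2.12 and met the standard, and without PW_Res3 it was 0.63. The contrast at 21 days met the standard without W_Res3 (1.41), the only W_Res library high in those markers, and was 0.33 without W_Res2.

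NFE2L2 itself did not meet the standard in any comparison. Its means were 19.7 ± 4.89 FPKM in W_Con, 15.7 ± 1.67 in PW_Con, 24.4 ± 12.8 in W_Res and 21.7 ± 9.47 in PW_Res (SD, n = 3), and every pair of groups overlapped. Its log2 fold changes in the 4 comparisons lay between -0.29 and 0.36, with adjusted p-values of 0.510 to 0.922 in limma, and its weaning contrast in resveratrol litters, -0.12, turned to 0.10 under median-of-ratios rescaling. NRF2 is largely controlled through its protein, which was not measured here.

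NQO1, NFE2L2 and SOD1 had higher values in the libraries low in distal markers, which come from W_Con, W_Res and PW_Res and none from PW_Con. In the 5 libraries low in those markers, NQO1 was at 5.99 to 28.4 FPKM against 2.73 to 5.10 FPKM in the other 7. NFE2L2 was at 20.7 to 38.1 against 12.7 to 18.3 FPKM, and SOD1 at 246 to 461 against 157 to 239 FPKM. This division of the libraries was chosen after seeing the values and is not a group of the study, so the ranges are a description with no test. Their order did not match that of the marker sum throughout, since NQO1 was lowest of the 5 in W_Con3, which had the second lowest marker sum, and SOD1 was highest of the 7 in PW_Con1, which had the second highest. CAT, SOD2, SOD3, GPX2 and TXNRD1 overlapped between the 5 and the 7 libraries.

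Of the 8 genes, 3 thus had higher values in all 5 libraries, and of 83 pathway genes 4 did and none had lower values in all 5, so that the other 79 overlapped. Over 12886 genes 1.06% did not overlap and 0.574% were higher in all 5, and since the division was made with the values known, these shares are printed for scale only. The 4 pathway genes were EPHX1, an epoxide hydrolase, at 65.6 to 238 FPKM against 5.34 to 26.2 FPKM, UGDH, which makes the donor for glucuronidation, at 22.6 to 56.2 against 8.0 to 19.2 FPKM, PIR, a quercetin dioxygenase, at 2.58 to 6.44 against 1.28 to 2.44 FPKM, and PRDX3, the mitochondrial peroxiredoxin, at 83.3 to 101 against 60.3 to 79.0 FPKM. EPHX1, UGDH and PIR are in the list of other NRF2 targets.

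**Figure D4:**
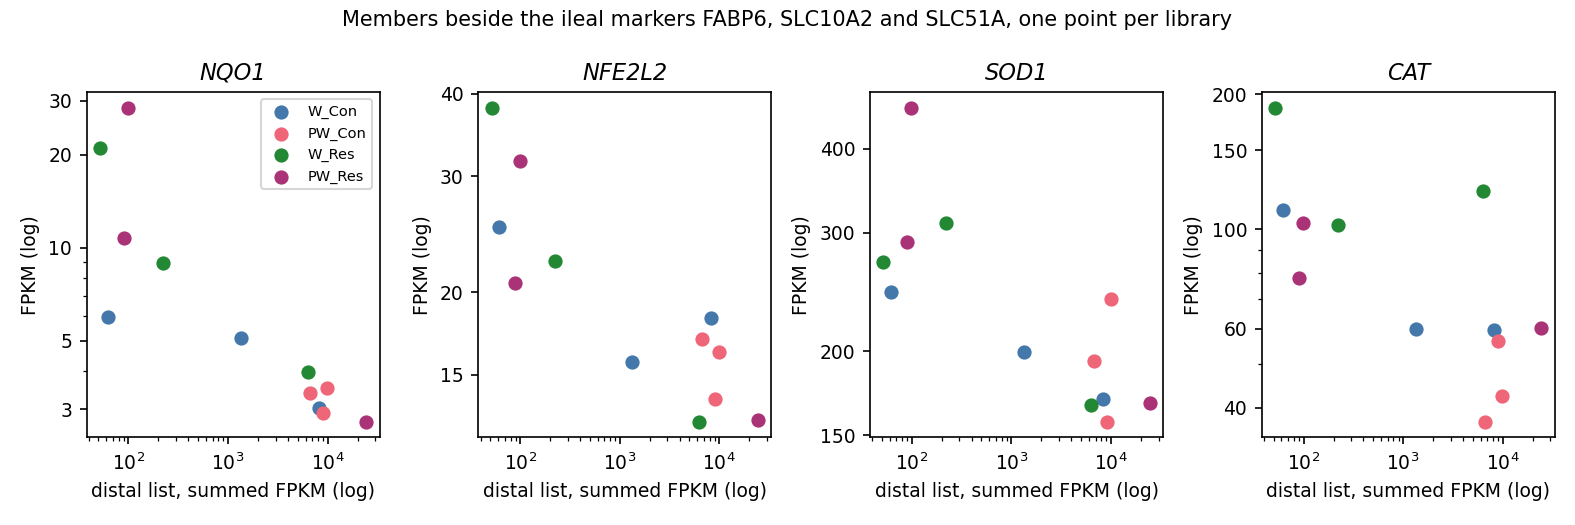
FPKM of NQO1, NFE2L2, SOD1 and CAT (vertical axes, log) against the summed FPKM of FABP6, SLC10A2 and SLC51A (horizontal axes, log), 1 point per library coloured by group. For NQO1, NFE2L2 and SOD1 the 5 libraries at 51.8 to 221 FPKM of distal markers are above all 7 at 1337 to 24495 FPKM, and CAT overlaps.

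Counted over the 8 genes, 1 met the standard for weaning in control litters (SOD3), while 3.31% of 12611 genes did, and 3 of 8 had P under 0.05 in limma (SOD3, TXNRD1 and CAT), with 17.7% of genes. In resveratrol litters none did in limma, with 1 of 8 at P under 0.05 (CAT), and the shares over 13013 genes were 4.75% and 13.3%. For resveratrol at 21 days 1 of 8 met it (SOD3), and 4.47% of 13186 genes did, with 2 of 8 (SOD3 and CAT) and 13.3% of genes at P under 0.05. At 28 days none did in limma and 3 of 8 had P under 0.05 (CAT, TXNRD1 and SOD3), with shares of 1.81% and 10.2% over 12380 genes.

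For the difference between weaning effects 2 of 8 met the standard (SOD3 and TXNRD1) and 7.76% of 12886 genes did, with the same 2 genes at P under 0.05 (13.7% of all). For the averages it was 1 of 8 each, GPX2 for weaning and NQO1 for resveratrol, with 1.42% and 0.939% of genes, and 3 of 8 (GPX2, CAT and SOD3) and 2 of 8 (NQO1 and CAT) had P under 0.05, with 19% and 12.3% of genes. Groups did not overlap for 2 of 8 genes (SOD3 and CAT) for weaning in control litters, where 25.3% of genes did not, for none in resveratrol litters (21.8%), for 1 (SOD3) with resveratrol at 21 days (21%) and for 3 (CAT, SOD3 and TXNRD1) at 28 days (17.3%). These are counts over 8 genes, with no test of the set. Comparisons that share a group of libraries are not independent of each other.

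The rest of the pathway was taken from 10 lists with 120 genes, of which 90 were matched, 12 of them by Ensembl identifier. KEAP1, the NRF2 repressor, was not matched. For weaning in control litters 84 could be tested, of which 1 rose and 3 fell (3.31% of all genes met the standard), and their median log2 fold change was -0.18 against -0.02 for all genes. MAFK, a small MAF partner of NRF2, rose from 2.98, 5.57 and 3.46 FPKM in W_Con to 9.38, 8.08 and 10.1 FPKM in PW_Con (log2 fold change 1.05, SE 0.23, adjusted p = 0.124 in limma). SLC40A1, the iron exporter ferroportin, fell from 3.40, 3.68 and 25.6 FPKM to 0.879, 1.50 and 1.14 FPKM (log2 fold change -1.92, SE 0.66, adjusted p = 0.210 in limma). The MAFK call was lost without W_Con1 (0.91), W_Con3 (0.99) or PW_Con3 (0.99), and that of SLC40A1 without PW_Con1 (-1.82) or PW_Con3 (-1.92) and with the distal marker term (-0.57), and it was -1.07 without W_Con3, the W_Con library with the most SLC40A1. The other 2 that fell belong to the peroxisome, the organelle that holds catalase.

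All 13 peroxisome genes tested had negative log2 fold changes for weaning in control litters, with a median of -0.42. Of these, 5 had a P under 0.05 (38.5%, against 17.7% of all genes) and 2 met the standard. ABCD3, a peroxisomal membrane transporter, fell from 17.8, 27.1 and 49.1 FPKM to 15.7, 8.01 and 9.08 FPKM (log2 fold change -1.37, SE 0.39, adjusted p = 0.168 in limma). With the distal marker term ABCD3 (-0.73) missed the standard. HSD17B4, PEX19 and PEX13 had values of -0.94, -0.79 and -0.42, below the fold of the standard. The list of genes for NADPH supply went the other way, with 4 of 5 tested positive and a median of 0.46. Of these 5, 3 were higher with a P under 0.05 in limma (60%), and none met the standard. In resveratrol litters 2 of the 5 were higher with a P under 0.05 in limma (40%, against 13.3% of all genes).

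In resveratrol litters 12 of the 13 were negative, with a median of -0.21 beside a median of -0.16 over all genes. None had a P under 0.05 in limma, against 13.3% of all genes. The difference between weaning effects was positive for 12 of the 13, with a median of 0.27 against -0.15 over all genes, beside -0.038 for CAT. Of the 13, 1 had a P under 0.05 for it in limma (7.69%, against 13.7% of all genes). With resveratrol, 4 of the 13 were positive at 21 days (median -0.10) and 10 at 28 days (median 0.28). Enterocyte markers (8 of 10 matched, none at 0) summed to 9024 to 20555 FPKM in W_Con, 3956 to 12833 in PW_Con, 9549 to 15766 in W_Res and 6010 to 14580 in PW_Res, and APOA1 and APOA4 made up the larger part of most sums. The sums overlapped in every comparison. For 2 of the 8 markers W_Con and PW_Con did not overlap, beside 25.3% of all genes. FABP2, a fatty acid binding protein, was at 260.4 to 759 FPKM in W_Con against 60.3 to 131 in PW_Con. MTTP, which loads lipid onto lipoproteins, was at 198 to 371 against 40.5 to 135. The other markers of the list overlapped between these groups. Among them, VIL1 was at 813 to 1021 FPKM in W_Con against 545 to 1012 in PW_Con, and ANPEP at 1339 to 2693 against 1859 to 2278. Proximal small intestine markers (3 of 4 matched, none at 0) separated some groups by their sum, most of which was S100G, a calcium-binding protein. With CYBRD1 and TRPV6, genes of iron and calcium uptake, it summed to 175 to 2796 FPKM in W_Con against 41.8 to 88.0 in PW_Con, and to 174 to 1265 in W_Res against 333 to 1021 in PW_Res, so that PW_Con lay below both W_Con and PW_Res, as it did for CAT. CYBRD1 and TRPV6, each taken singly, overlapped between W_Con and PW_Con, and between PW_Con and PW_Res. The part of either list in the peroxisome and CAT values was not tested.

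**Figure D5:**
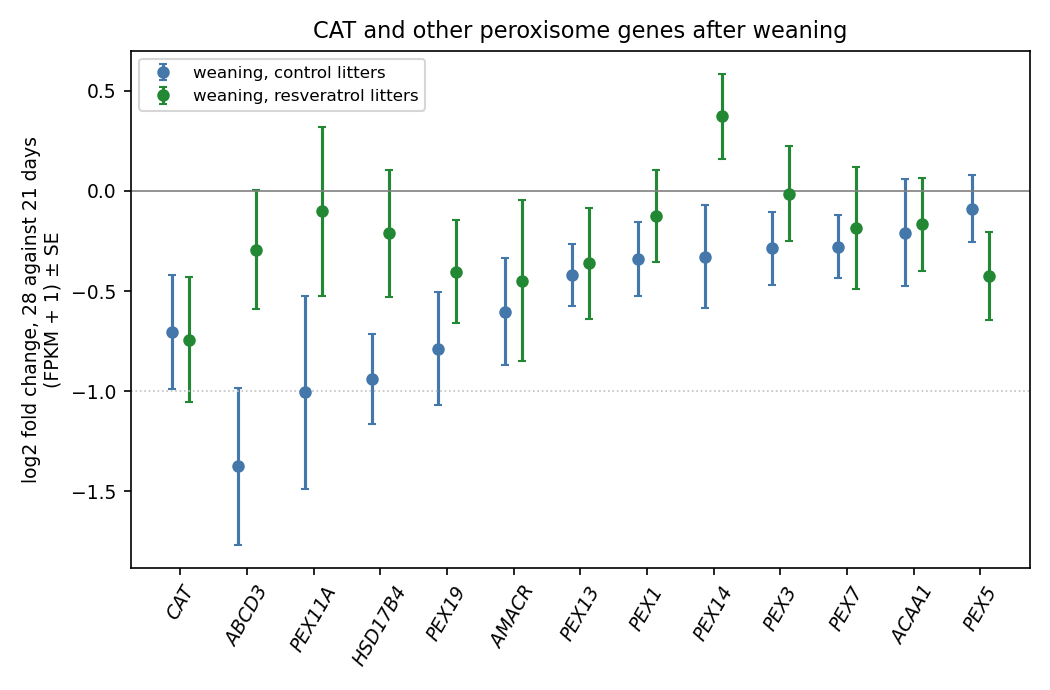
Log2 fold change of 28 against 21 days on the log2(FPKM + 1) scale (vertical axis, whiskers are the SE from limma) for CAT and 12 of the 13 other peroxisome genes (horizontal axis), in control and in resveratrol litters. The 12 shown are all below 0 in control litters, with ABCD3 at -1.37, and 11 of them in resveratrol litters.

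For weaning in resveratrol litters, 2 of 83 pathway genes tested fell and none rose, a smaller share than the 4.75% of all genes. MSRB3, a methionine sulfoxide reductase, fell by 1.51 on the log2 scale (SE 0.49, adjusted p = 0.337 in limma), from 10.1, 15.2 and 3.00 FPKM to 2.74, 2.38 and 1.49 FPKM. GPX8, a peroxidase of the endoplasmic reticulum, fell by 1.19 (SE 0.31, adjusted p = 0.311 in limma). Both were highest in W_Res2 (15.2 and 6.35 FPKM), the library richest in smooth muscle markers. With resveratrol at 21 days, MSRB3 was also the only one of 83 that rose (4.47% of all genes met the standard), by 1.57 (SE 0.59, adjusted p = 0.354 in limma), and none fell. Without W_Res2, GPX8 (-0.97) and MSRB3 (-1.08 for weaning and 1.14 for resveratrol) no longer met the standard. The same held without PW_Res3 for GPX8 (-0.99) and MSRB3 (-1.33), and for MSRB3 without W_Res1 (-1.35 and 1.42) and, at 21 days, without W_Con3 (1.09).

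At 28 days 1 of 82 pathway genes rose with resveratrol and none fell, a smaller share than the 1.81% of all genes. It was GCLC, the catalytic subunit of the enzyme that limits glutathione synthesis and an NRF2 target. GCLC was at 8.47, 6.68 and 4.49 FPKM in PW_Con and at 9.00, 19.8 and 30.05 FPKM in PW_Res, which did not overlap (log2 fold change 1.34, SE 0.42, adjusted p = 0.402 in limma). The call was lost without PW_Con3 (1.13) or PW_Res3 (0.97) and with the distal marker term (0.66). The PW_Res libraries with the most GCLC were those with the most NQO1 (10.7 and 28.4 FPKM). The 6 other NRF2 targets tested all had positive values at 28 days, with a median of 0.89 against -0.07 over all genes, but none had a P under 0.05 in limma (10.2% of all genes did). In PW_Res1, the PW_Res library high in the distal markers, UGDH (10.51 FPKM), EPHX1 (11.9) and PIR (1.57) lay within the range of PW_Con, and in PW_Res2 and PW_Res3, both low in them, all 3 genes were above it. ABCC2, also in this list, was higher in every PW_Res library, PW_Res1 included, than in every PW_Con library. Its log2 fold change was 1.39 (SE 0.68, adjusted p = 0.527 in limma). ABCC3 and AKR1B1 overlapped between PW_Res and PW_Con. The part of the distal markers in these values was not tested. In the same comparison, all 5 genes tested for heme breakdown and iron storage were positive, 2 of them with P under 0.05 in limma (40%). Of the 8 oxidant source genes tested, 6 were negative, and 2 of these had P under 0.05 in limma (25%).

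The difference between weaning effects met the standard for 5 of 83 pathway genes, a smaller share than the 7.76% of all genes. The weaning effect was higher in resveratrol than in control litters for MGST3, a microsomal glutathione transferase (difference 1.04), and SEPSECS, which makes selenocysteinyl tRNA (1.05). It was lower for MSRB3 (-1.58), GPX8 (-1.20) and NCF4, a subunit of the phagocyte oxidase (-1.11), and the adjusted p-values of the 5 were 0.305 to 0.344 in limma. Each call was lost in 4 to 8 of the 12 fits that left out 1 library, and without W_Con3 none of the 5 met the standard (MGST3 0.70, SEPSECS 0.90, MSRB3 -1.10, GPX8 -0.79 and NCF4 -0.91). GPX4, the peroxidase that protects membrane lipids, ranged from 80.2 to 151 FPKM, with log2 fold changes of -0.17 to -0.092 in the 4 comparisons. FTH1, the ferritin heavy chain, was listed at 0 in 11 of the 12 libraries, so its row gives no usable level.

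Averaged over both litter sets, SLC40A1 fell with weaning by 1.33 (SE 0.49, adjusted p = 0.201 in limma). It was the only one of 83 pathway genes past the standard, which 1.42% of all genes met. It missed the standard without W_Con3 (-0.90) or W_Res3 (-1.12). Averaged over both ages, none was past it for resveratrol in limma (0.939% of all genes were), and 13 had a P under 0.05 (15.7%, against 12.3% of all genes).

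Likeness to other genes was described by Pearson's r of log2(FPKM + 1) over the 12 libraries, among 4475 genes with a mean of at least 5 FPKM. The libraries share groups and tissue makeup, so these values are a description with no test. The genes most like NQO1 were USP40 (0.95) and the members SOD1 (0.89) and NFE2L2 (0.88). SOD1 was most like PCYOX1 (0.90), UGDH (0.90) and INTS3 (0.90). CAT was most like SLC25A4 (0.93), the mitochondrial ADP/ATP carrier, then ZDHHC9 (0.90) and GRK5 (0.90). SOD3 was most like SBF1, PTPRCAP and RNPEPL1 (0.93 each), GPX2 like TSTD1 (0.89), PDZD11 (0.86) and SNORA73 (0.86), and TXNRD1 like STON2 (0.89) and CTH (0.87).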

How the data were processed

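RNA of 12 jejunum samples was sequenced (paired ends, poly(A) RNA). The authors deposited 1 table of FPKM for 41264 loci. The paper names TopHat, StringTie and Ballgown, while the submitters' processing notes list Bowtie 0.12.2, HISAT2 2.0, StringTie 1.3.0 and the builds Sscrofa10.2 and mm8. Loci that carry no gene name (17650, 42.8%) were not used, and the rest were summed to 17049 gene names. SOD2, NFE2L2 and TXNRD1 each had 2 rows, the higher holding at least 98.0% of the sum. No counts were given, so no count model was used.

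A linear model was fitted to log2(FPKM + 1) with limma 3.58.1 under R 4.3.3, moderated by eBayes with a variance trend, over genes with a mean of at least 0.5 FPKM, on the 6 libraries of each pair of groups or on all 12. The method was tested on simulated data for weaning in control litters only, with independent noise and planted changes larger than the fold of the standard. That test held no differences shared by many genes of a library, such as those beside the distal markers. The members, the pathway lists and the marker lists were chosen with earlier results of these data known. Named from the pathway lists were genes that met the standard in at least 1 comparison, with GPX4 and FTH1; the genes that followed the distal markers and the other peroxisome genes were chosen after their values were seen. The alternatives were other pseudocounts, filters, scalings, variance models, a replicate block, the highest row per gene, all 12 libraries in 1 fit and leaving out each library. A distal marker term was added after seeing the data. Because the paper reports these marker genes as increased by weaning, the term can also take up part of a weaning difference. Values of 2 further genes that the rules would name are left out of the text.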

Additional observations from a re-analysis of the deposited data

Results flagged for a closer look

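For 2 of the 8 genes the weaning effects of the 2 litter sets differed by a test of the difference itself. The cutoffs of the study were applied to limma values for this. The difference for SOD3 was -1.89 (resveratrol minus control litters), with contrasts of 1.83 in control and -0.065 in resveratrol litters. The difference for TXNRD1 was 1.09, with contrasts of -0.51 and 0.58. It fell short of the standard in 4 of the 12 fits that left out 1 library, without W_Con1 (0.99), W_Res2 (0.84), PW_Con3 (0.99) or PW_Res3 (0.92), and under quantile normalization (0.95). The adjusted p-values were 0.251 and 0.270 in limma, and 7.76% of all genes met the same standard. Among the further pathway genes the difference was 1.04 for MGST3, 1.05 for SEPSECS, -1.58 for MSRB3, -1.20 for GPX8 and -1.11 for NCF4, by the same test. None of these 5 met the standard without W_Con3.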

How the results depend on the processing

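With 3 libraries a group, no adjusted p of the 8 genes was under 0.05, and the depth behind a value is unknown. Leaving out 1 library in turn gave these numbers of the 8 genes past the standard: 1 to 1 for weaning in control litters, 0 to 1 in resveratrol litters, 0 to 2 for resveratrol at 21 days, 0 to 1 at 28 days, 1 to 2 for the difference, 0 to 1 for the weaning average and 0 to 2 for the resveratrol average. Over all genes the same fits gave 380 to 550, 388 to 1049, 394 to 944, 222 to 426, 633 to 1367, 153 to 255 and 103 to 167 calls, in that order, against 418, 618, 590, 224, 1000, 183 and 121 with all libraries. Log2 fold changes whose sign turned in these fits ranged for weaning in control litters from -0.21 to 0.086 (SOD1) and -0.20 to 0.57 (SOD2), for weaning in resveratrol litters from -0.13 to 0.60 (SOD1), -0.30 to 0.82 (SOD2), -0.36 to 0.31 (SOD3), -0.50 to 0.26 (NFE2L2) and -0.64 to 0.85 (NQO1), for resveratrol at 21 days from -0.76 to 0.38 (SOD2) and -0.19 to 0.57 (NFE2L2), and at 28 days from -0.52 to 0.26 (SOD2). In the difference they ranged from -0.33 to 0.21 (CAT), -0.063 to 0.66 (SOD1), -0.55 to 0.59 (SOD2), -0.71 to 0.83 (GPX2), -0.21 to 0.55 (NFE2L2) and -0.25 to 1.23 (NQO1), in the weaning average from -0.095 to 0.27 (SOD1), -0.029 to 0.53 (SOD2), -0.51 to 0.24 (NQO1) and -0.089 to 0.14 (TXNRD1), and in the resveratrol average from -0.46 to 0.11 (SOD2) and -0.10 to 0.26 (SOD3). None of these met the standard.

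Deviations of same-numbered libraries from their group means had correlations of -0.26 to 0.30 over 18 pairs. Of these, 5 were over 0.1, and 6 correlated best with their own number. This check cannot tell whether same-numbered libraries share a litter, because other differences between libraries also enter the deviations. A replicate block kept the number of members past the standard in all 7 comparisons and gave 444, 633, 631, 258, 1059, 188 and 125 genes.

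A pseudocount of 0.1 gave 853, 1163, 1008 and 488 genes in the first 4 comparisons, 591 for the weaning average with 2 of the 8 genes (GPX2 and SOD3), and 379 for the resveratrol average. A minimum of 5 FPKM gave 227, 245, 248, 122, 364, 118 and 76 genes, and with it, with no filter, and under quantile normalization none of the 8 remained for the weaning average. Median-of-ratios rescaling gave 1 of 8 for weaning in resveratrol litters and 0 of 8 for resveratrol at 21 days, and turned SOD3 (0.14) and NFE2L2 (0.10) for weaning in resveratrol litters and CAT (0.16) and GPX2 (0.14) in the difference. Quantile normalization gave 410 genes for weaning in resveratrol litters, 0 of 8 for resveratrol at 21 days and 1 of 8 for the difference, and turned SOD3 for weaning in resveratrol litters (0.058) and TXNRD1 in the weaning average (-0.022). Before rescaling, the median of all genes was -0.16 for weaning in resveratrol litters, -0.15 for the difference and -0.10 for the weaning average. With the distal marker term, chosen after seeing the data, none of the 8 met the standard for resveratrol at 21 days or for either average, and 399 genes did for resveratrol at 28 days. It turned SOD1 (0.17) for weaning in control litters, SOD1 (-0.040), SOD2 (0.38) and NFE2L2 (-0.13) for resveratrol at 28 days, SOD1 (-0.090), GPX2 (0.44), NFE2L2 (-0.27) and NQO1 (-0.36) in the difference, NFE2L2 (0.0018) and NQO1 (0.24) in the weaning average, and SOD2 (0.036), SOD3 (-0.031) and NFE2L2 (-0.086) in the resveratrol average. The causes were not tested.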
